A study of Mus musculus with 9 samples.

Results

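Disease-associated microglia are a state of brain microglia that was described around amyloid plaques and in other neurodegenerative settings, and the 10 genes examined here are among the genes that define it. They are Spp1, Trem2, Tyrobp, Apoe, Lpl, Cst7, Itgax, Clec7a, Gpnmb, and Cd9, chosen by name from 54119 genes, and each value is the sum over all annotated transcripts. In this programme, the surface receptor TREM2 senses lipids and cell debris and signals through the adaptor TYROBP, and its activation accompanies a rise of genes for lipid handling, lysosomal digestion, and secreted proteins. Entry into the full state is known to depend on TREM2, while homeostatic microglial genes fall.

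The study asked what loss of Chd8 or Tsc2, both linked to autism spectrum disorder, does to microglia. RNA-seq was carried out on primary microglia of C57BL/6J mice, shaken off mixed glial cultures of embryonic whole brains and treated with control siRNA, Chd8 siRNA, or Tsc2 siRNA. Each treatment had 3 libraries, numbered 1, 2, and 3. Sources differ on the stimulus. The methods place RNA isolation 3 days after siRNA, the results text adds stimulation with lipopolysaccharide (LPS), a bacterial cell wall component, and the labels name no LPS, so the controls may carry that stimulus as well. The methods also list experiments done without LPS, and the RNA-seq is not among them. All groups are cultured cells from embryos, carried through the same transfection, and no library comes from adult or diseased brain. Biological replicates were cultures from distinct mouse brains according to the methods, but the labels do not say whether libraries that share a number came from 1 culture, and p-values measure only the spread between these libraries.

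Total counts per library were between 16913448 and 33213801, so that 3 counts, taken as the floor of detection, were worth 0.0903 to 0.177 CPM, a count divided by the library total and multiplied by 1e6. That floor covers counting error only. Values below are CPM after TMM scaling of the library sizes, called normalized CPM. In the first check of the labels, Chd8 was at 118, 97.4, and 93.6 normalized CPM in control siRNA libraries 1 to 3 and at 86.8, 44.5, and 38.3 with Chd8 siRNA, and Tsc2 was at 40.8, 39.9, and 38.9 with control siRNA and at 24.6, 30.6, and 36.5 with Tsc2 siRNA. Each target was lower in all 3 of its knockdown libraries than in the controls. In edgeR fits that block on the replicate number, described with the results, the log2 fold change was −0.93 (SE 0.14, adjusted p = 0.00777 from edgeR) for Chd8 and −0.39 (SE 0.12, adjusted p = 0.219 from edgeR) for Tsc2, so the decrease of Tsc2 did not pass the test. All 9 microglial and macrophage markers were detected, with a summed level between 3073 and 4251 normalized CPM. Summed astrocyte markers were at 13.8 to 15.6 normalized CPM in the libraries numbered 1, 27.4 to 30.3 in those numbered 2, and 58.3 to 114 in those numbered 3, and fibroblast and mural markers at 8.66 to 11.7, 14.9 to 30.0, and 27.5 to 66.8. By treatment, the astrocyte sum was 15.6 to 114 with control siRNA, 14.3 to 58.3 with Chd8 siRNA, and 13.8 to 58.5 with Tsc2 siRNA. The fibroblast and mural sum was 11.7 to 66.8 with control siRNA, 11.3 to 27.5 with Chd8 siRNA, and 8.66 to 48.7 with Tsc2 siRNA. Of the 4 tested genes of that list, edgeR with the block called 1 with Chd8 siRNA and 0 with Tsc2 siRNA, against 0.535% and 0.387% of all genes. DESeq2 with the block called 1 and 1, against 0.817% and 0.707%. The collagen gene Col1a1 fell with Chd8 siRNA (log2 fold change −1.31, SE 0.25, adjusted p = 0.0218, edgeR block fit) and had −1.03 (SE 0.24, adjusted p = 0.0794 in the same fit) with Tsc2 siRNA. Col1a2 had −0.60 (SE 0.31) and −0.89 (SE 0.32), Col3a1 −0.71 (SE 0.72) and 0.12 (SE 0.64), and Pdgfrb, a mural cell receptor, −0.28 (SE 0.26) and 0.42 (SE 0.26). Of the 9 astrocyte genes, 0 were called with either siRNA by edgeR or DESeq2 with the block. In edgeR, 2 and 2 had an unadjusted p under 0.05, against 12.8% and 10.7% of all genes. Gfap had −1.24 (SE 0.29) and −0.77 (SE 0.28). The part of these cells in the results was not tested. In 7 of the 10 genes, the 3 libraries numbered 1 also stood apart from the other 6. They were below in 6 genes and above in 1, against 9.21% and 9.64% of all genes. This split was chosen after the values were seen. Values within each number are therefore given beside the pooled ones.

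All 10 genes passed the filter on low counts. Levels between genes were compared per length, as counts per kilobase of annotated transcript scaled within each library in the same way as CPM. Apoe, the main lipoprotein of the brain, was the highest of the 10 with control siRNA, at 6540 ± 1107 (SD, n = 3) on this scale, and ranked 6 among the 54119 genes. Spp1, which encodes the secreted matrix protein osteopontin, followed at 1031 ± 523 (SD, n = 3) and ranked 24. Lpl, lipoprotein lipase, was at 199 ± 26.8 (SD, n = 3). Gpnmb at 118 ± 37.6 (SD, n = 3) and Tyrobp at 111 ± 19.2 (SD, n = 3) lay within each other's spread. Trem2 was at 46.1 ± 16.1 (SD, n = 3), and its interval of 1 SD overlapped those of Clec7a at 32.8 ± 8.04 (SD, n = 3) and Cd9 at 31.2 ± 12.8 (SD, n = 3). Cst7 was at 23.3 ± 0.455 (SD, n = 3), within the spread of Cd9, and Itgax was far below the others at 1.17 ± 0.707 (SD, n = 3), ranking 8225. The order of the first 5 was the same with Tsc2 siRNA except that Tyrobp, at 123 ± 1.12 (SD, n = 3), lay above Gpnmb, at 103 ± 12.4 (SD, n = 3), and with Chd8 siRNA Tyrobp also lay above Gpnmb.

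The sequences just upstream of the start sites are given for Spp1, Trem2, and Itgax, because Spp1 carries the knockdown result, Trem2 encodes the receptor of the programme, and Itgax differed most between libraries. They are the 250 bases before the RefSeq start on GRCm38.p6, read 5′ to 3′ on the plus strand, with matches to the motifs below in capitals.
Spp1, chr5:104434861-104435110, plus strand: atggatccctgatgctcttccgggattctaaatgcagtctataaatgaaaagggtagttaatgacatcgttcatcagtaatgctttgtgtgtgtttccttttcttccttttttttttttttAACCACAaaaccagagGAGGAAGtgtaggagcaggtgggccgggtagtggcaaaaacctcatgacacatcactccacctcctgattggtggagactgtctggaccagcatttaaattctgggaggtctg
Trem2, chr17:48346151-48346400, plus strand: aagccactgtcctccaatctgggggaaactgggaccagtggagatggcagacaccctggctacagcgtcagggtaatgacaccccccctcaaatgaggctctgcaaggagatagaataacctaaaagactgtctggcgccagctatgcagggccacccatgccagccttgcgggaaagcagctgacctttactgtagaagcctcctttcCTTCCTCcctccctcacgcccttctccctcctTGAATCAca
Itgax, chr7:128129300-128129549, plus strand: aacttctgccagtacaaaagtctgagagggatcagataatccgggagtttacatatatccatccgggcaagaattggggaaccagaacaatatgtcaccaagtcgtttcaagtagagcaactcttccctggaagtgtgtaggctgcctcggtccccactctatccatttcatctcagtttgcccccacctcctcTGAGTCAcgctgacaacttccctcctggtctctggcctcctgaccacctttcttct
Motifs were searched on both strands and were chosen after the values and sequences had been seen. The PU.1 motif GAGGAAG, read by the myeloid factor encoded by Spi1, lay 113 to 107 bases before the start of Spp1 and, on the minus strand, 41 to 35 bases before that of Trem2. It occurred in 10.6% of 32851 mouse windows of the same length. An AP-1 motif, TGANTCA, lay 9 to 3 bases before the start of Trem2 and 56 to 50 bases before that of Itgax, against 6.75% of all windows. The RUNX motif AACCACA lay 129 to 123 bases before the start of Spp1 and 176 to 170 bases before that of Gpnmb, against 4.4% of all windows. An E-box CACGTG, present in 6.02% of all windows, was in none of the 12 windows of the 8 genes with an entry, and Tyrobp and Lpl had no entry. Positions for Spp1 refer to the start whose window is printed, and window 2 of Spp1, before another start, held 0 matches. These matches describe letters only, and binding was not measured.

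Spp1 lies on chromosome 5 (104435118 to 104441050, plus strand, GRCm38) and was called with Tsc2 siRNA only in fits that block on the replicate number. It was at 4419, 1690, and 2531 normalized CPM in control siRNA libraries 1 to 3, at 3285, 1359, and 2393 with Chd8 siRNA, and at 3003, 873, and 1470 with Tsc2 siRNA. The groups overlapped, because library 1 of each treatment was the highest and library 2 the lowest. Within each number, both knockdowns were below their control. The ratio of Tsc2 siRNA to control siRNA was 0.679, 0.517, and 0.581 in numbers 1 to 3, and that of Chd8 siRNA to control siRNA was 0.743, 0.804, and 0.945. Both ratios share the same 3 control libraries.

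**Figure D1:**
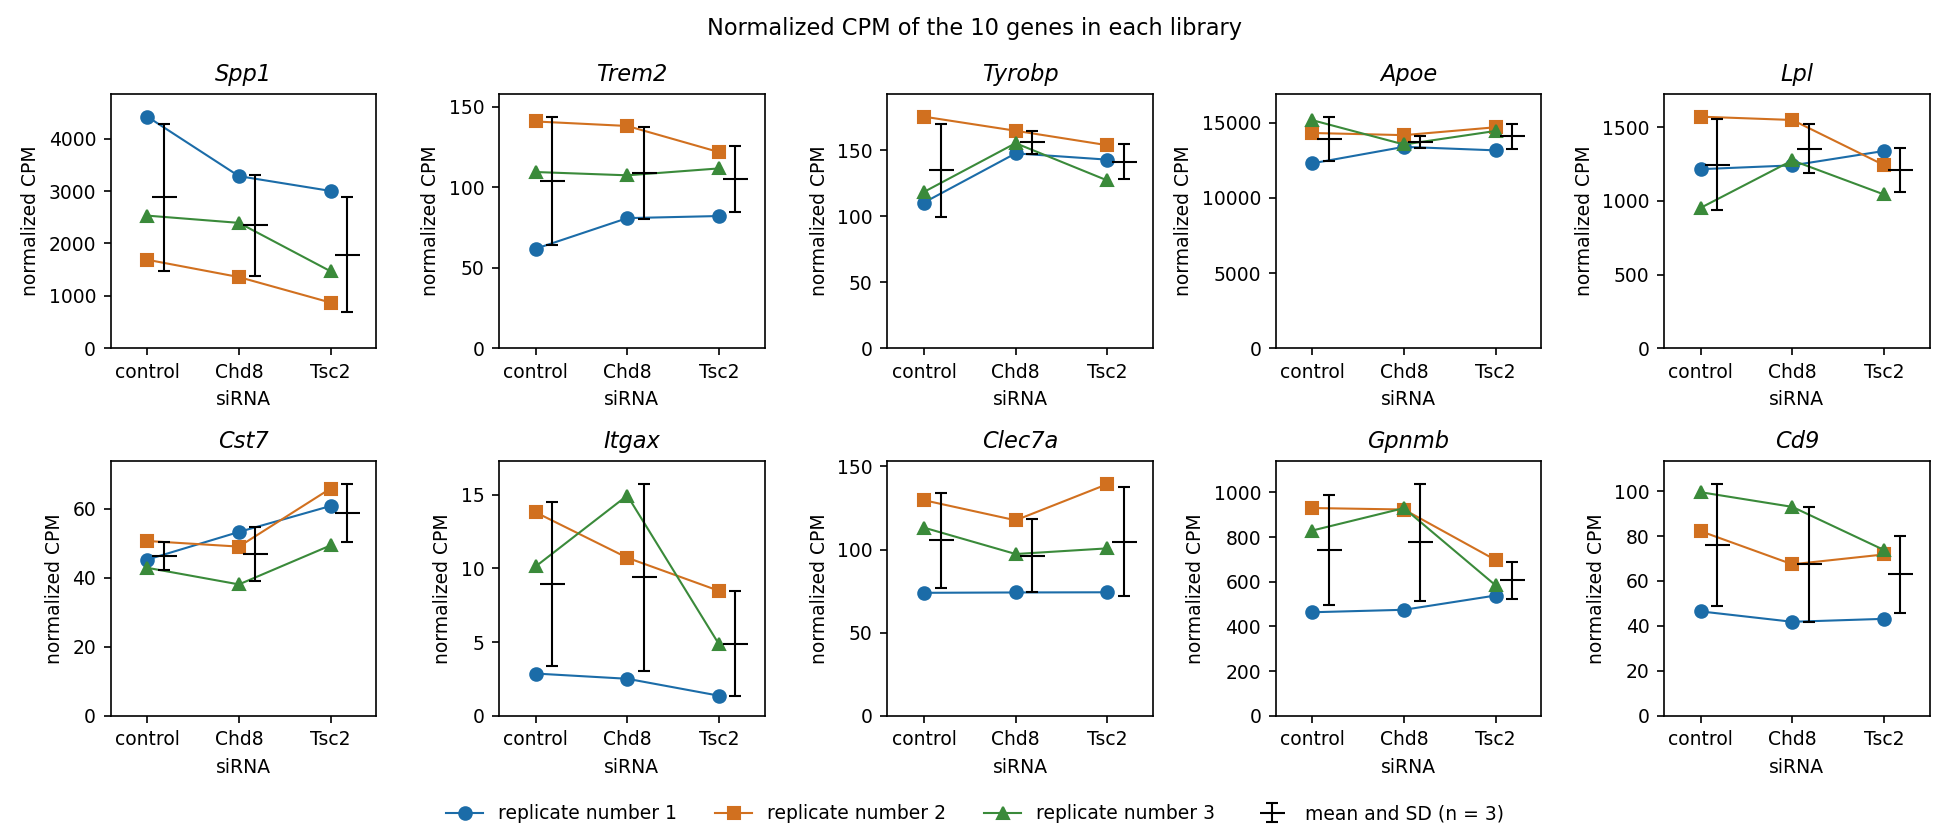
Normalized CPM (vertical axes, linear, starting at 0) of each of the 10 genes in the 9 libraries by siRNA (horizontal axes), with lines joining libraries of the same replicate number and black bars for the mean and SD (n = 3). The Spp1 lines descend from control siRNA to Tsc2 siRNA at all 3 numbers, from 4419, 1690, and 2531 to 3003, 873, and 1470, while the lines of Trem2, Clec7a, Gpnmb, and Cd9 start lowest at number 1.

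edgeR's quasi-likelihood F test was run over 16273 genes, with Benjamini-Hochberg adjustment. A gene was called where the FDR was under 0.05 and the change at least 1.5-fold. With the siRNA as the only factor, 0 of the 10 genes were called in each of the 3 comparisons, 0 had an unadjusted p under 0.05, and DESeq2's Wald test called 0 of them. Across all genes, edgeR called 0.0% in each comparison, 3.82% (Chd8 siRNA against control), 2.61% (Tsc2 siRNA against control), and 3.1% (between the knockdowns) had an unadjusted p under 0.05, and DESeq2 called 0.0553%, 0.0369%, and 0.0307%. For Spp1 with Tsc2 siRNA, the log2 fold change was −0.69 (SE 0.49, adjusted p = 1.00 from edgeR). Libraries with the same number deviated together, and edgeR with a block for the number called 1 of the 10 genes with Tsc2 siRNA, against 0.387% of all genes in either direction and 0.197% lower. An unadjusted p under 0.05 was found for 4 of the 10, against 10.7% of all genes, and DESeq2 with the block called 2 of the 10, Spp1 and Itgax, against 0.707%. The gene called by edgeR was Spp1, which fell with a log2 fold change of −0.76 (SE 0.09, adjusted p = 0.00153, edgeR with the block) and was lower at 3 of 3 numbers. Leaving out each of the 9 libraries in turn gave −0.91 to −0.67 on the log2 scale, with Spp1 called in 9 of 9 fits and the adjusted p at most 0.0230. Its call thus rests on the block, without which the same change stayed within the spread between libraries. The paper reports no effect of either siRNA on Spp1 by quantitative RT-PCR, a separate measure of RNA. That assay followed a shorter LPS stimulation than the RNA-seq text names, and the difference was not examined here. In bulk RNA, fewer cells with Spp1 and less Spp1 per cell cannot be told apart.

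**Figure D2:**
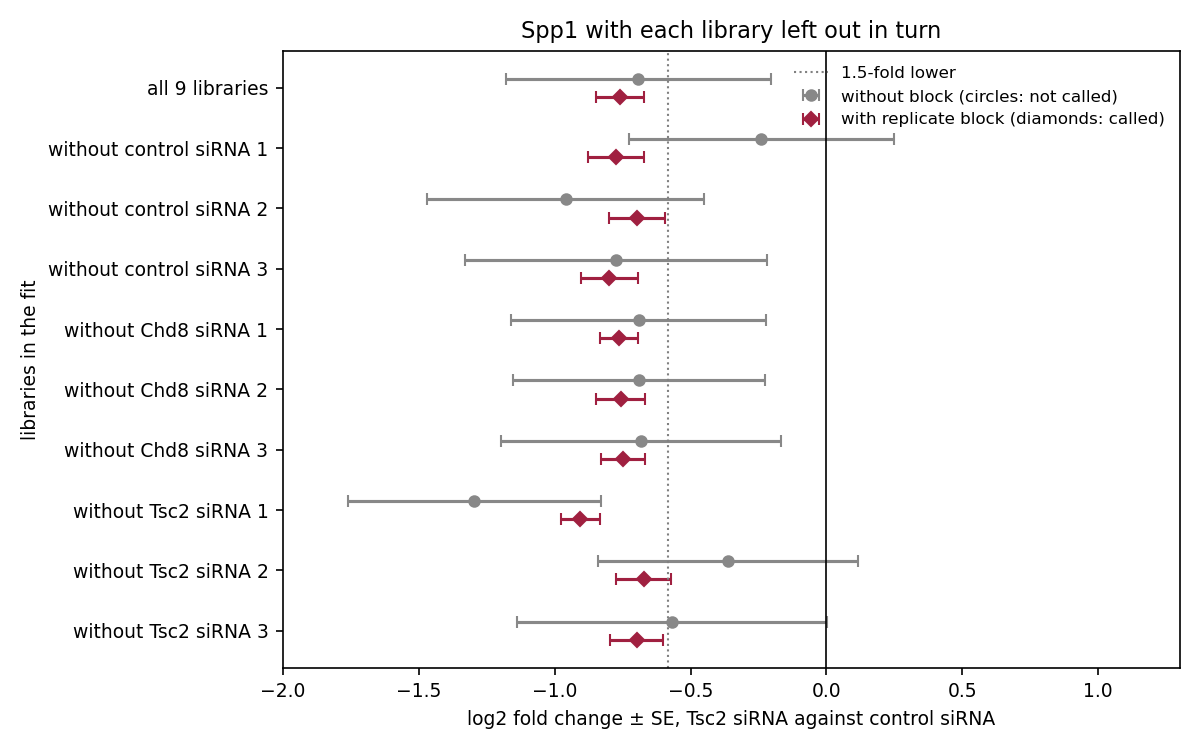
Log2 fold change of Spp1 with Tsc2 siRNA against control siRNA (horizontal axis, bars are SE) for all 9 libraries and with each library left out (vertical axis), without the replicate block (grey circles) and with it (red diamonds); the dotted line is a 1.5-fold decrease. With the block the estimates lie between −0.91 and −0.67, and without it they spread from −1.30 to −0.24 with wider bars.

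With Chd8 siRNA, the block gave 0 of the 10 genes called against 0.535% of all genes, 2 of the 10 had an unadjusted p under 0.05 against 12.8%, and DESeq2 with the block called 0 against 0.817%. For Spp1, the log2 fold change was −0.27 (SE 0.09, adjusted p = 0.177, edgeR block fit), and Chd8 siRNA was lower at 3 of 3 numbers. The knockdowns themselves were compared next. Spp1 was higher with Chd8 siRNA than with Tsc2 siRNA by 0.49 on the log2 scale (SE 0.09, adjusted p = 0.0263 from edgeR with the block), past the FDR, as were 0.375% of all genes, but short of the 1.5-fold threshold, which 0.221% of all genes passed together with the FDR. Without single libraries this difference ranged from 0.38 to 0.63, and the adjusted p reached 0.298 in edgeR. With only the libraries of both knockdowns in the fit it was 0.49 (SE 0.10, adjusted p = 0.172, edgeR block fit). The FDR was met with the block by DESeq2 (adjusted p = 8.29e-05), by edgeR with DESeq2 size factors (adjusted p = 0.0223), and by edgeR in numbers 2 and 3 alone (0.67, adjusted p = 0.000973), the last also past 1.5-fold. In this comparison DESeq2 with the block called 1 of the 10 genes, Itgax, against 0.633% of all genes. The Spp1 difference passed both thresholds in 2 of the 9 edgeR fits with a library left out, without Chd8 siRNA library 1 or without Tsc2 siRNA library 1.

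Spp1 counts came mainly from 1 transcript. Spp1-201 held 91.0% to 93.6% of them in every library, and Spp1-205 and Spp1-204 held most of the rest. With the block the log2 fold change of Spp1-201 with Tsc2 siRNA was −0.74 (SE 0.11, adjusted p = 0.966 from edgeR over all transcripts), and those of Spp1-205 and Spp1-204 were −0.95 (SE 0.17) and −0.92 (SE 0.28). A same-strand gene model, Gm42793, overlaps Spp1 on chromosome 5 and held 2587 counts over all libraries against 519179 for Spp1. Over all 10 genes, 36 of 47 transcripts were tested. Of the transcripts of these genes, 0 were called with either siRNA by edgeR, with 0 at an unadjusted p under 0.05 with Chd8 siRNA and 1 with Tsc2 siRNA, and with 0 called by DESeq2. Of all 41633 transcripts, edgeR called 0.0% in either comparison, 3.32% and 2.83% had an unadjusted p under 0.05, and DESeq2 called 0.452% and 0.413%. The transcript under 0.05 was Spp1-203, a minor form with 108 counts over all libraries. With the block, edgeR again called 0, and 1 and 7 of the 36 had an unadjusted p under 0.05, against 5.41% and 4.48% of all transcripts.

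The receptor and its adaptor did not pass the test with either siRNA. Trem2, on chromosome 17 (48346401 to 48354147, plus strand, GRCm38), was at 61.8, 141, and 109 normalized CPM in control siRNA libraries 1 to 3, at 80.9, 138, and 107 with Chd8 siRNA, and at 82.2, 122, and 112 with Tsc2 siRNA. Library 1 was the lowest of each group, and the groups overlapped. With the block, the log2 fold change of Trem2 was 0.10 (SE 0.10) with Chd8 siRNA and 0.07 (SE 0.10) with Tsc2 siRNA, with adjusted p = 0.756 and 0.883 from edgeR. In numbers 2 and 3 alone these values were −0.03 and −0.09, so the positive sign was lost without the libraries numbered 1.

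Tyrobp, on chromosome 7 (30413760 to 30417585, plus strand), was at 110, 175, and 118 normalized CPM with control siRNA, at 148, 165, and 155 with Chd8 siRNA, and at 143, 154, and 127 with Tsc2 siRNA. Numbers 1 and 3 were higher with both knockdowns than in control, whereas number 2 was lower. With the block its log2 fold change was 0.24 (SE 0.10, unadjusted p = 0.0365, adjusted p = 0.340 from edgeR) with Chd8 siRNA and 0.09 (SE 0.10, adjusted p = 0.841 from edgeR) with Tsc2 siRNA. Tyrobp-202 carried 98.2% to 99.7% of the Tyrobp counts, and Tyrobp-201 was listed at 0 in every library.

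Among the genes of lipid handling, neither Apoe nor Lpl passed the test. Apoe, on chromosome 7 (19696109 to 19699188, minus strand), was at 12300, 14319, and 15171 normalized CPM with control siRNA, at 13397, 14176, and 13554 with Chd8 siRNA, and at 13164, 14700, and 14454 with Tsc2 siRNA. It had the narrowest range of the 10 genes, the highest library being 1.23 times the lowest. Its log2 fold change in edgeR with the block was −0.02 (SE 0.05) with Chd8 siRNA and 0.02 (SE 0.05) with Tsc2 siRNA. Apoe counts were spread over 3 main transcripts, and Apoe-206, Apoe-209, and Apoe-202 held 43.3%, 31.4%, and 23.9% of them on average with control siRNA.

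Lpl, on chromosome 8 (68880491 to 68907448, plus strand), was at 1216, 1572, and 953 normalized CPM with control siRNA, at 1241, 1549, and 1275 with Chd8 siRNA, and at 1339, 1243, and 1044 with Tsc2 siRNA. Its changes differed in sign between numbers. In the fit with the block the log2 fold change was 0.14 (SE 0.09, adjusted p = 0.577 from edgeR) with Chd8 siRNA and −0.02 (SE 0.09, adjusted p = 0.966 from edgeR) with Tsc2 siRNA. A form annotated for nonsense-mediated decay, Lpl-203, held 27.2% to 30.5% of the Lpl counts.

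Itgax, which encodes the integrin CD11c, was the lowest of the 10 genes and had the largest log2 fold change with Tsc2 siRNA. It lies on chromosome 7 (128129547 to 128150657, plus strand). Its normalized CPM was 2.87, 13.8, and 10.1 with control siRNA, 2.51, 10.7, and 14.9 with Chd8 siRNA, and 1.37, 8.47, and 4.86 with Tsc2 siRNA, from 32 to 363 counts per library. Tsc2 siRNA was below control at 3 of 3 numbers, with ratios of 0.477, 0.614, and 0.480, and the groups overlapped because every library numbered 1 was low. The log2 fold change was −0.86 (SE 0.78, adjusted p = 1.00 from edgeR) without the block and −0.92 (SE 0.25, adjusted p = 0.130 from edgeR) with it. DESeq2 with the block gave −0.92 (SE 0.28, adjusted p = 0.0365), and edgeR with the block but no count filter −0.90 (SE 0.24, adjusted p = 0.0138), so its call depended on the tool and the filter. With Chd8 siRNA the log2 fold change was 0.05 (SE 0.24, adjusted p = 0.962 from edgeR with the block). The difference between the knockdowns was 0.97 (SE 0.25, adjusted p = 0.120 from edgeR with the block).

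Cst7, which encodes cystatin F, an inhibitor of lysosomal cathepsins, lies on chromosome 2 (150570415 to 150578944, plus strand) and was at 45.3, 50.7, and 42.9 normalized CPM with control siRNA, at 53.3, 49.0, and 38.1 with Chd8 siRNA, and at 60.8, 65.9, and 49.4 with Tsc2 siRNA. Tsc2 siRNA was above control at 3 of 3 numbers, although its library 3 was below control library 2. The log2 fold change was 0.34 (SE 0.16, adjusted p = 1.00 from edgeR) without the block and 0.33 (SE 0.10, unadjusted p = 0.00510, adjusted p = 0.202 from edgeR) with it, and it was not called in any fit. With Chd8 siRNA it was 0.01 (SE 0.10). All counts of Cst7 came from 1 transcript.

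Gpnmb, a transmembrane glycoprotein of lysosomes and phagocytic cells on chromosome 6 (49036546 to 49070929, plus strand), was at 463, 930, and 829 normalized CPM with control siRNA, at 475, 923, and 929 with Chd8 siRNA, and at 538, 697, and 584 with Tsc2 siRNA. With Tsc2 siRNA it was above control at number 1 and below it at numbers 2 and 3, with ratios of 1.16, 0.750, and 0.704. The log2 fold change with Tsc2 siRNA and the block was −0.22 (SE 0.12, adjusted p = 0.559 from edgeR). In numbers 2 and 3 alone it was −0.46 (SE 0.07, adjusted p = 0.00777 from edgeR with the block), past the FDR but under 1.5-fold, and these libraries were selected once the values were known.

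Cd9, a tetraspanin of the cell surface on chromosome 6 (125460266 to 125494791, minus strand), was at 46.5, 82.1, and 99.5 normalized CPM with control siRNA, at 41.8, 67.4, and 93.0 with Chd8 siRNA, and at 43.2, 71.8, and 73.8 with Tsc2 siRNA. Both knockdowns were below control at 3 of 3 numbers. Its values with the block were −0.17 on the log2 scale (SE 0.10, adjusted p = 0.493 from edgeR) with Chd8 siRNA and −0.24 (SE 0.10, adjusted p = 0.371 from edgeR) with Tsc2 siRNA. Clec7a, the β-glucan receptor Dectin-1 on chromosome 6 (129461591 to 129472779, minus strand), was at 74.0, 130, and 113 normalized CPM with control siRNA, at 74.2, 118, and 97.3 with Chd8 siRNA, and at 74.3, 139, and 101 with Tsc2 siRNA. The 3 libraries numbered 1 differed by less than 1 CPM. Its log2 fold changes with the block were −0.12 (SE 0.09) and −0.02 (SE 0.09). Most Clec7a counts, 72.6% to 83.6%, lay on Clec7a-204, which the annotation types as a polymorphic pseudogene.

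For 0 of the 10 genes did the 3 libraries of a knockdown lie on one side of all 3 control libraries, against 9.09% of all genes with Chd8 siRNA and 8.11% with Tsc2 siRNA. By exact two-sided permutation of log2 CPM, p was between 0.4 and 1.0 with Chd8 siRNA and between 0.2 and 1.0 with Tsc2 siRNA, and 3 libraries against 3 cannot go below 0.1. In the same direction at all 3 numbers were 2 of the 10 genes with Chd8 siRNA, Spp1 and Cd9, against 36.0% of all genes, and 4 with Tsc2 siRNA, Spp1, Cd9, Itgax, and Cst7, against 31.8%. The share with Chd8 siRNA was below that of all genes and the share with Tsc2 siRNA above it, each over only 10 genes and with no test. The median log2 fold change of the 10 genes with the block was 0.03 with Chd8 siRNA and −0.02 with Tsc2 siRNA, beside −0.02 and −0.01 over all genes.

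**Figure D3:**
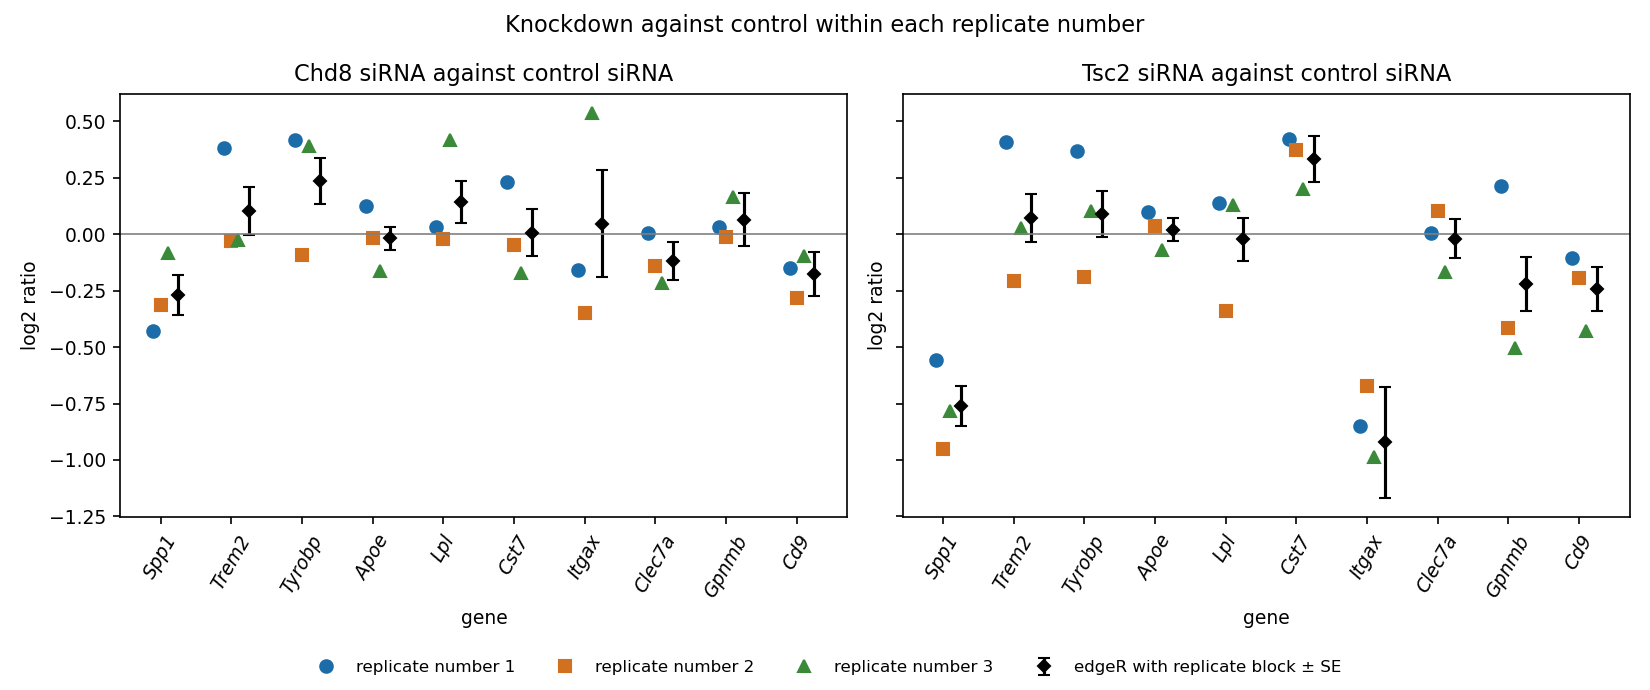
Log2 ratio of each knockdown to the control library of the same replicate number (vertical axis, coloured symbols for numbers 1 to 3) for the 10 genes (horizontal axis), with the log2 fold change ± SE from edgeR with the replicate block in black. With Tsc2 siRNA all 3 symbols of Spp1, Itgax, and Cd9 are below 0 and those of Cst7 above 0, and with Chd8 siRNA only Spp1 and Cd9 have all 3 on one side.

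More of the 10 genes differed between replicate numbers than between treatments. With the siRNA in the model, 9 of the 10 genes differed between numbers at an FDR of 0.05 in edgeR, against 25.0% of all genes, the exception being Apoe (adjusted p = 0.0610 from edgeR). Spp1 was lower in numbers 2 and 3 than in number 1, by log2 fold changes of −1.49 and −0.77 (adjusted p = 4.31e-08 from edgeR). Itgax was higher by 2.34 and 2.10 (adjusted p = 1.37e-05 from edgeR), and Trem2 by 0.84 and 0.55 (adjusted p = 7.90e-05 from edgeR). Clec7a, Gpnmb, and Cd9 were higher in numbers 2 and 3 as well, by 0.48 to 1.01. Cst7, Lpl, and Tyrobp differed by less, between −0.29 and 0.31.

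Spp1 went in the opposite direction to most of the others. Its 3 libraries numbered 1 were above the other 6, at 3003 to 4419 normalized CPM against 873 to 2531, as in 9.64% of all genes. For 6 of the 10 genes, Trem2, Apoe, Itgax, Clec7a, Gpnmb, and Cd9, the libraries numbered 1 were below the other 6, as in 9.21% of all genes. The comparison of number 1 with the others was chosen after the values were seen. Number 1 was also lowest in the astrocyte and fibroblast markers given above.

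**Figure D4:**
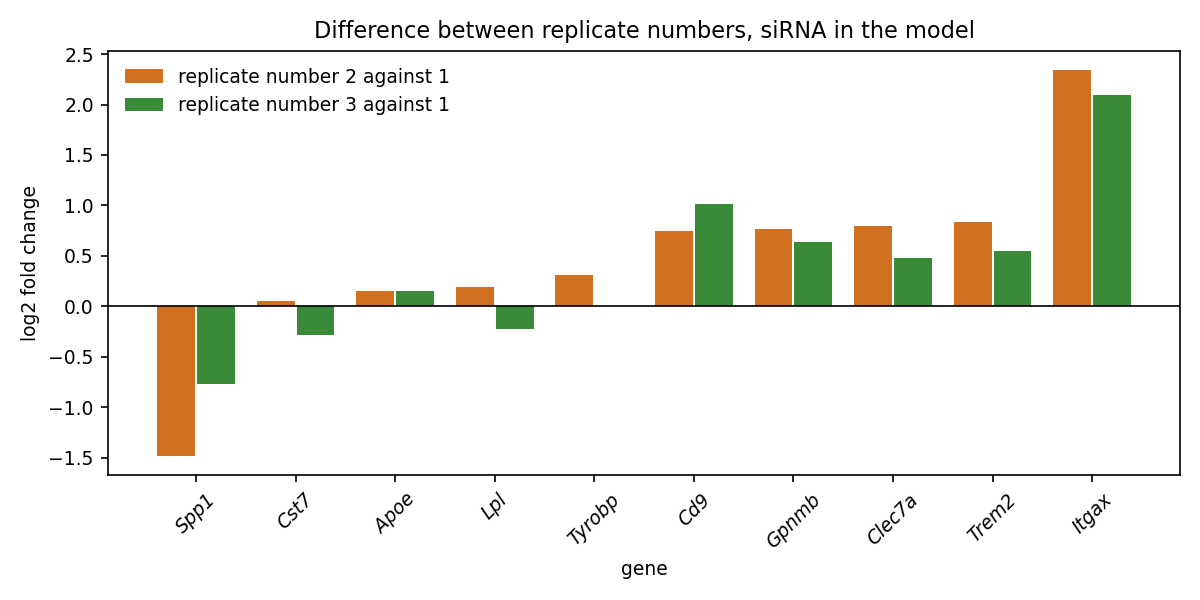
Log2 fold change between replicate numbers (vertical axis; orange, 2 against 1; green, 3 against 1) for the 10 genes (horizontal axis), from edgeR with the siRNA in the model. Spp1 lies at −1.49 and −0.77, while Trem2, Clec7a, Gpnmb, Cd9, and Itgax have both bars above 0.

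Across the 9 libraries, the genes most like Spp1 in log2 CPM were Arhgef7, Ahdc1, 2900026A02Rik, Atp2a2, and Gm43387, with Pearson's r between 0.96 and 0.97. The genes most like Trem2 were Cox6c, Denr, Mgll, Atp11b, and Emp3, with r between 0.97 and 0.98. Among the 10 genes, Trem2 was closest to Clec7a (r = 0.90) and Gpnmb (r = 0.85), and its r with Spp1 was −0.83. These values describe 9 libraries that share 3 numbers and 3 treatments.

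Other genes of the disease-associated programme were read from a list of 28, of which 27 were tested. With the block, 1 of 27 was called with Chd8 siRNA and 0 with Tsc2 siRNA, with 12 and 5 at an unadjusted p under 0.05, and DESeq2 with the block called 1 and 0. For this and the lists that follow, the shares of all genes with the block are 0.535% and 0.387% called by edgeR, 12.8% and 10.7% at an unadjusted p under 0.05, and 0.817% and 0.707% called by DESeq2. Without the block, edgeR called 0 genes of every list described from here on, and so did DESeq2. Ccl6, a chemokine of myeloid cells, was the gene called and rose with Chd8 siRNA. It was at 39.4, 38.5, and 21.0 normalized CPM with control siRNA and at 61.0, 58.3, and 36.1 with Chd8 siRNA, higher at 3 of 3 numbers. Its log2 fold change was 0.67 (SE 0.11, adjusted p = 0.0140 from edgeR with the block). With 1 library left out it ranged from 0.57 to 0.73, and the call was lost without control library 2 or 3 or without Chd8 siRNA library 1 or 2, with the adjusted p up to 0.147 (edgeR with the block). Ccl6 was also higher at 3 of 3 numbers with Tsc2 siRNA, at 0.42 (SE 0.11) with the block, but was not called. The median log2 fold change of the 27 genes was 0.14 with Chd8 siRNA and 0.05 with Tsc2 siRNA, beside −0.02 and −0.01 over all genes.

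Csf2ra, a receptor chain for GM-CSF, had a log2 fold change of 0.37 (SE 0.10, adjusted p = 0.0959 from edgeR with the block) with Chd8 siRNA. Cd52, a small surface glycoprotein, had 0.39 (SE 0.08, adjusted p = 0.0419 from edgeR with the block) with Tsc2 siRNA, past the FDR and under 1.5-fold. In the same comparison, Ch25h had −0.36 (SE 0.09) and was lower at 3 of 3 numbers. Ch25h was named after its value was seen. B2m, the light chain of MHC class I, was at 1870, 1775, and 1627 normalized CPM with control siRNA and at 2096, 2082, and 2097 with Tsc2 siRNA, groups that did not overlap, with a log2 fold change of 0.26 (SE 0.07, adjusted p = 0.108 from edgeR with the block).

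Of the 10 genes of TREM2 signalling and shedding, 0 were called with the block with either siRNA by edgeR or DESeq2, with 3 and 0 at an unadjusted p under 0.05 in edgeR. Inpp5d, the lipid phosphatase SHIP1 that restrains this signal, had log2 fold changes of 0.40 (SE 0.14) with Chd8 siRNA and −0.23 (SE 0.14) with Tsc2 siRNA. Between the knockdowns, Inpp5d had 0.64 (SE 0.14, adjusted p = 0.0703, edgeR block fit), and it was the 1 gene of this list that DESeq2 with the block called (0.65, SE 0.15, adjusted p = 0.00157). Pik3cg, a catalytic subunit of PI3-kinase, had −0.31 (SE 0.10) with Chd8 siRNA. Adam10, a protease that sheds TREM2 from the surface, had −0.21 (SE 0.10) with Tsc2 siRNA.

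The 7 receptor chains for osteopontin, integrin subunits and Cd44, included 0 called genes with the block by edgeR or DESeq2, with 1 at an unadjusted p under 0.05 in edgeR with each siRNA. These were Itgav, at a log2 fold change of 0.15 (SE 0.07) with Chd8 siRNA, and Cd44, at 0.22 (SE 0.06) with Tsc2 siRNA, the latter named after its value was seen. Itgb1 had −0.16 (SE 0.08) with Tsc2 siRNA. Itgb3 was low, at 0.401 to 4.98 normalized CPM, and its values of −0.39 (SE 0.59) with Chd8 siRNA and −1.20 (SE 0.65) with Tsc2 siRNA carried the largest errors of the list.

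Among 9 tested genes of lipoprotein handling, 0 were called with the block by edgeR or DESeq2, with 4 and 1 at an unadjusted p under 0.05 in edgeR with Chd8 siRNA and Tsc2 siRNA. Lrp1, an endocytic receptor for APOE, was at 563, 789, and 666 normalized CPM with control siRNA and at 463, 550, and 523 with Tsc2 siRNA. The groups did not overlap, and its log2 fold change was −0.38 (SE 0.08, adjusted p = 0.0563 from edgeR with the block). Scarb1, a receptor for high-density lipoprotein, had −0.42 (SE 0.22) with Tsc2 siRNA, and Vldlr, a lipoprotein receptor, 0.18 (SE 0.58) with Chd8 siRNA. Angptl4, an inhibitor of lipoprotein lipase, was under 1 normalized CPM in every library and at 0 in 1 Chd8 siRNA library, so its fitted fold change depends on the prior count and is not given.

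Transcription factors of the programme numbered 9, and 0 were called with the block by edgeR or DESeq2, with 1 and 5 at an unadjusted p under 0.05 in edgeR. Spi1, which encodes PU.1, was at 368, 393, and 299 normalized CPM with control siRNA and at 417, 497, and 395 with Tsc2 siRNA, with a log2 fold change of 0.31 (SE 0.07, adjusted p = 0.0743 in edgeR's block fit). With Chd8 siRNA it had 0.23 (SE 0.07). Mitf, a factor for lysosomal and phagocytic genes including Gpnmb, had 0.26 (SE 0.09) with Tsc2 siRNA. Of the 5 factors under 0.05 with Tsc2 siRNA, 3 had positive values, the other being Bhlhe40 at 0.46 (SE 0.22), and 2 had negative ones at 3 of 3 numbers, Hif1a at −0.31 (SE 0.08) and Tfec at −0.38 (SE 0.12), which are named here after their values were seen. Nr1h3, the liver X receptor alpha, had 1.02 (SE 0.49) with Chd8 siRNA from 0.905 to 5.49 normalized CPM.

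Of 15 homeostatic microglial genes, 12 were tested and 0 called with the block by edgeR or DESeq2, with 4 and 3 at an unadjusted p under 0.05 in edgeR. Cx3cr1, the fractalkine receptor, and Tgfbr1, a receptor for TGF-β, had log2 fold changes of −0.42 (SE 0.18) and −0.35 (SE 0.16) with Chd8 siRNA. Gpr34, a lysophospholipid receptor, had 0.97 (SE 0.35) with Tsc2 siRNA.

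The LPS response list held 10 genes, and with the block edgeR called 0 with Chd8 siRNA and 1 with Tsc2 siRNA, with 6 and 4 at an unadjusted p under 0.05, while DESeq2 called 0 in both. That gene was Nos2, the inducible nitric oxide synthase, which fell with Tsc2 siRNA. It was at 796, 837, and 1023 normalized CPM with control siRNA and at 673, 460, and 426 with Tsc2 siRNA, without overlap, and its log2 fold change was −0.77 (SE 0.14, adjusted p = 0.0202 from edgeR with the block). DESeq2 with the block gave −0.77 (SE 0.26, adjusted p = 0.0827). Without single libraries edgeR with the block gave −1.04 to −0.53, and the call was lost without library 2 or 3 of either group, with the adjusted p up to 0.201. With Chd8 siRNA Nos2 was at 631, 589, and 831 normalized CPM, below control at 3 of 3 numbers, with a log2 fold change of −0.38 (SE 0.14, adjusted p = 0.251 from edgeR with the block). Ptgs2, which encodes cyclooxygenase-2, passed the FDR with Tsc2 siRNA at −0.39 (SE 0.07, adjusted p = 0.0116, edgeR block fit), and Cxcl10, an interferon-induced chemokine, with Chd8 siRNA at 0.33 (SE 0.06, adjusted p = 0.0173 from edgeR with the block), both under 1.5-fold. Of the genes under 0.05 with Chd8 siRNA, only Cxcl10 rose. Besides Nos2, Saa3 had −0.60 (SE 0.16), Lcn2 −0.42 (SE 0.14), Il6 −0.28 (SE 0.08), and Ptgs2 −0.16 (SE 0.07). With Tsc2 siRNA, Il6 had −0.30 (SE 0.08) and Lcn2 −0.41 (SE 0.14). Saa3, Lcn2, and Il6 were named after their values were seen. Ptgs2 was at 3671 to 4667 normalized CPM with control siRNA.

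**Figure D5:**
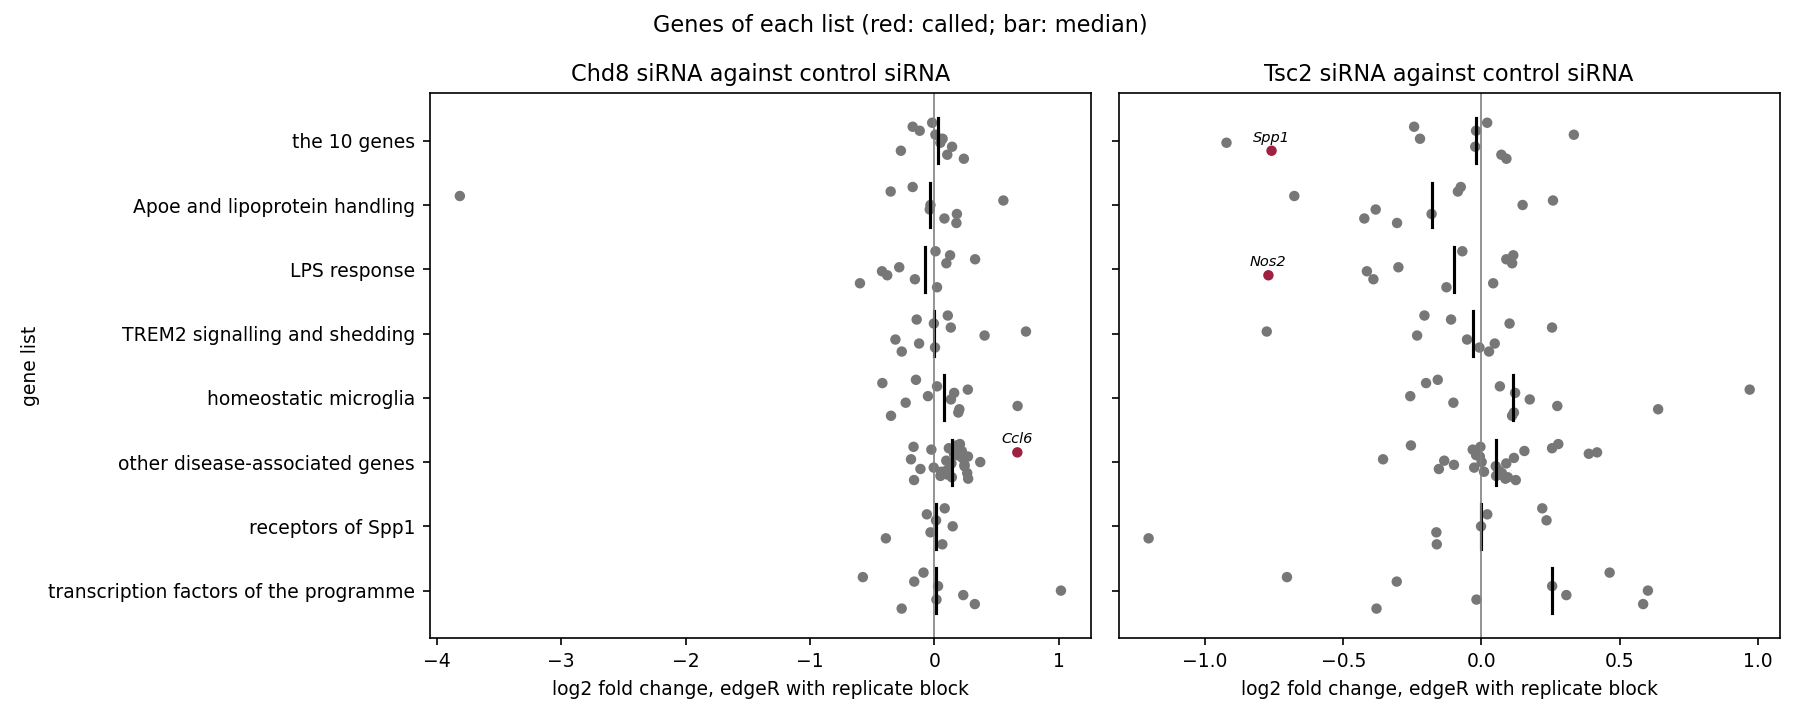
Log2 fold change with the replicate block (horizontal axes, of different width in the panels) of every tested gene in the 10 genes of interest and 7 related lists (vertical axis), with the list median as a black bar and genes called at an FDR of 0.05 and 1.5-fold in red. Ccl6 is red with Chd8 siRNA, and Spp1 and Nos2 with Tsc2 siRNA; the leftmost Chd8 siRNA point is Angptl4, whose fitted value rests on counts near the floor of detection.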

How the data were processed

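Per the labels and the methods, the authors quantified RNA-seq reads of 9 libraries with salmon 0.14.1 on mm10, used tximport, and deposited the estimated counts of each transcript, not normalized. The labels name a stranded SMARTer kit and the methods an Illumina total RNA preparation, and the transcript annotation release is not given in the sources used here. Estimated counts from the deposited table were summed to genes with GENCODE mouse release vM21, which matched 139852 of 140948 transcripts, unmatched ones holding 0.27% of counts, and rounded to whole numbers.

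Analysis used R 4.3.3, edgeR 4.0.16, DESeq2 1.42.0, and Python 3.11.15. Genes passing filterByExpr (16273) were fitted with TMM scaling and edgeR's quasi-likelihood test, over all 9 libraries with siRNA as the factor, and were called below an FDR of 0.05 with at least a 1.5-fold change. Permutation tests used log2 CPM with a pseudocount of 0.5. The 10 genes and the lists were chosen with earlier results of these data known. From each list, the 2 genes with the lowest p per knockdown without the block were named, as were genes called in a fit described, and 1 gene so chosen is not reported here. Motifs were chosen after the values were seen. The fits were tested on simulated data.

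Replicate numbers come from the labels. Deviations from group means correlated between all 9 pairs of libraries with 1 number (r = 0.244 to 0.521 over 16273 genes). The correlation was lower in the other 18 pairs (−0.381 to 0.0363), so the numbers were taken to pair the samples. Fold changes in the text are mostly from the fit with the block, also where it changed no call. Errors were wider without it. For Trem2 with Tsc2 siRNA against control siRNA, the SE was 0.30 without the block and 0.10 with it. With the block, the biological coefficient of variation went from 0.408 to 0.234. Alternatives were other size factors, no count filter, DESeq2, 2 groups only, the top transcript only, the block, and each library left out. Upstream sequences are from RefSeq.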

Additional observations from a re-analysis of the deposited data

Results flagged for a closer look

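For Spp1 the difference between the knockdowns passed an FDR of 0.05 in some fits with the block and not in others. With the replicate block, the effect of Chd8 siRNA minus that of Tsc2 siRNA was 0.49 on the log2 scale (SE 0.09, adjusted p = 0.0263 from edgeR), and Chd8 siRNA was above Tsc2 siRNA at 3 of 3 replicate numbers. Without the block it was 0.40 (SE 0.49, adjusted p = 1.00 from edgeR). Restricted to the 6 knockdown libraries, the block fit gave 0.49 (SE 0.10, adjusted p = 0.172 from edgeR), and with the block and 1 library left out the adjusted p reached 0.298 (edgeR). The FDR was met with the block by DESeq2 (adjusted p = 8.29e-05), with DESeq2 size factors (adjusted p = 0.0223, edgeR), and in numbers 2 and 3 alone (adjusted p = 0.000973, edgeR).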

How the results depend on the processing

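Without the replicate block, 0 of the 10 genes were called under every other setting run and with each library left out, the top transcript alone having been run only against control siRNA. With the block, the count for Tsc2 siRNA against control siRNA became 1 (Spp1), and stayed 1 with DESeq2 size factors, with only the 2 groups compared, and in numbers 2 and 3 alone, and it was 2 (Spp1 and Itgax) with DESeq2 and with no filter; these 5 combinations were chosen after the data were seen. Leaving out libraries with or without the block gave 0 to 1. For Chd8 siRNA against Tsc2 siRNA the block gave 0, but 1 with DESeq2 or no filter (Itgax), 1 in numbers 2 and 3 alone (Spp1), and 0 to 1 with libraries left out, the 1 being Spp1 without Chd8 siRNA library 1 or Tsc2 siRNA library 1. List genes called went from 0 to 1 with the block for each knockdown, and ranged from 0 to 2 with libraries left out. Across all genes, the block raised the calls from 0 to 87 with Chd8 siRNA and from 0 to 63 with Tsc2 siRNA, DESeq2 without the block called 9 and 6, and DESeq2 with it 133 and 115. Genes differing between numbers fell from 9 to between 6 and 8 with a library left out. Signs turned only in changes that were not called. With Tsc2 siRNA, Clec7a went to 0.011 with no filter, 0.0083 with its top transcript only, and 0.00061 with the block and no filter, and Trem2 to −0.016 with its top transcript. With Chd8 siRNA, Apoe went to 0.0064 and Cst7 to −1.84e-06 with the top transcript. In numbers 2 and 3 with the block, Trem2 (−0.030) and Cst7 (−0.11) turned with Chd8 siRNA, and Apoe (−0.017), Trem2 (−0.088), and Tyrobp (−0.049) with Tsc2 siRNA. With 1 library left out, with or without the block, 63 values of the 10 genes and 9 of the named list genes turned sign. For Chd8 siRNA the ranges were Spp1 −0.62 to 0.15, Trem2 −0.20 to 0.35, Apoe −0.10 to 0.043, Lpl −0.040 to 0.32, Cst7 −0.089 to 0.15, Itgax −0.44 to 0.53, Clec7a −0.33 to 0.045, Gpnmb −0.18 to 0.32, Cd9 −0.47 to 0.077, Itgb3 −1.02 to 0.36, Itgav −0.13 to 0.45, and Vldlr −0.74 to 1.36. For Tsc2 siRNA the ranges were Trem2 −0.25 to 0.30, Tyrobp −0.054 to 0.31, Apoe −0.061 to 0.086, Lpl −0.20 to 0.16, Clec7a −0.27 to 0.19, and Inpp5d −0.45 to 0.030. For Chd8 against Tsc2 siRNA the ranges were Trem2 −0.16 to 0.22, Apoe −0.094 to 0.0060, Clec7a −0.32 to 0.14, and Cd9 −0.21 to 0.35. The cause was not tested. Itgax, with 32 to 363 counts per library, had the least depth of the 10 genes, and 3 libraries per group limit the precision.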
